A study of Mus musculus with 16 samples.

Results

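The 6 libraries described here hold the small RNA of the mural trophectoderm of mouse blastocysts that had been halted in development by either of 2 routes. They were chosen by the tissue and treatment labels and the headers of the count tables, and they are 6 of the 16 libraries of the series. In 3 libraries the blastocysts had entered natural diapause in the uterus and were taken at EDG 7.5 (diapaused). In the other 3 the pause had been induced with an inhibitor of the kinase mTOR (mTORi), and no embryonic day, dose or compound is given for them. Normal blastocysts at E4.5 (WT, n = 2 mural libraries) serve below as a reference level. No genotype or strain is named for any group. A laser (pulses of 300 µs) separated each blastocyst into a piece with the inner cell mass, called polar, and a piece of mural trophectoderm. The titles of the 3 mural mTORi libraries also contain the word diapaused, while their tissue label, treatment label and table header all give mural and mTOR-inhibited, and that assignment was used. The labels state neither how many embryos a library holds nor whether replicates came from separate litters, so p-values measure the spread between these libraries.

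Mural trophectoderm is the outer epithelium of the blastocyst that surrounds the cavity on the side away from the inner cell mass. Its cells later become the first trophoblast giant cells and make contact with the uterus. In diapause the blastocyst stops growing and waits unattached in the uterine lumen, and inhibiting mTOR, a kinase that couples nutrient supply to growth, brings about a similar standstill in culture. A miRNA is a short RNA that guides Argonaute proteins to messenger RNAs, and bases 2 to 8 at its 5′ end, the seed, do most of the pairing, so miRNAs with the same seed have overlapping targets. Mouse early embryos are known for a chromosome 7 cluster, miR-290/miR-295, that supplies a large part of their miRNA. The comparison asks how far the miRNA content of the trophectoderm differs between the natural and the induced pause.

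The sequences that follow carry the results and come from RefSeq (GRCm38.p6), in which 89 of the 102 tested names had a mature sequence. They are written 5′ to 3′ with the seed in capitals. The first set belongs to the X-linked miR-322/miR-503 cluster, which held the clearest difference between the pauses. The members shown here lie on the minus strand at chrX:53049415-53054327, outside other annotated genes on that strand. Reading along that strand the order is miR-322, miR-503, miR-351, miR-542. The cluster shares below also include miR-450b (chrX:53047997-53048078), with 3 counts of each arm in diapaused and 0 in mTORi libraries. The sequence of miR-125a-5p (chr17:17830817-17830840, in Spaca6) is added because it has the seed of miR-351-5p.
miR-322-5p: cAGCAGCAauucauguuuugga
miR-503-5p: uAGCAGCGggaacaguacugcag
miR-351-5p: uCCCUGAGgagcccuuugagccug
miR-351-3p: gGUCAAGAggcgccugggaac
miR-542-3p: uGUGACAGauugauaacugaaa
miR-125a-5p: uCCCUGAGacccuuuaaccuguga

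The second set holds miRNAs that were higher in the mTORi libraries, together with miR-10a-5p and miR-30a-5p, which overlapped between the groups and are shown for their shared seeds. miR-10b-5p and miR-10a-5p share a seed and sit in Hox gene clusters, with miR-10b in an intron of Hoxd3 and Hoxd4 (chr2:74726074-74726096). miR-30e-5p and miR-30e-3p are the arms of 1 hairpin in an intron of Nfyc (chr4:120772606-120772697, minus strand), and miR-30a-5p has the seed of the 5p arm. miR-5126 (chr1:84695890-84695911) is shown because every base of it is G or C.
miR-10b-5p: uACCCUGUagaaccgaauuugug
miR-10a-5p: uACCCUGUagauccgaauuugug
miR-30e-5p: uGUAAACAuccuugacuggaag
miR-30a-5p: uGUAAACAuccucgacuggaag
miR-30e-3p: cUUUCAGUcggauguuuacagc
miR-29a-3p: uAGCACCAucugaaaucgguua
miR-22-3p: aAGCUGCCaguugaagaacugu
miR-5126: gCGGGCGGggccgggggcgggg

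The third set shows the most abundant species and those that were lower in the mTORi libraries, grouped by seed. The miR-290/miR-295 members come from chr7:3218626-3220841 and include 3 tested names with the seed CUCAAAC and 3 with AAGUGCU, while the other tested members with a sequence have different seeds (GUGCCGC in miR-293-3p). miR-93-5p, from within Mcm7, and miR-17-5p, from the Mir17hg transcript, share the seed AAAGUGC.
miR-292a-5p: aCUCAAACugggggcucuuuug
miR-293-5p: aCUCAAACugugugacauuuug
miR-290a-5p: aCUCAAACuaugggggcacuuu
miR-294-3p: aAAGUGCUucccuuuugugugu
miR-295-3p: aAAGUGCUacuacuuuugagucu
miR-291a-3p: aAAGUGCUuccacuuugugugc
miR-293-3p: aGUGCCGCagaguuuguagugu
miR-200c-3p: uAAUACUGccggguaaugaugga
miR-200b-3p: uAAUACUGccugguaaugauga
miR-93-5p: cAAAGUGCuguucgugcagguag
miR-17-5p: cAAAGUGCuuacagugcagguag
miR-672-5p: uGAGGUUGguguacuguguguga
miR-501-3p: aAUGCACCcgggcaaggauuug
miR-1981-5p: gUAAAGGCugggcuuagacguggc

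The diapaused libraries held 12607, 20051 and 14814 miRNA counts and the mTORi libraries 4386, 3613 and 3490, so depth and group cannot be told apart (4.13 times as many counts on average in diapaused). Of 1978 names, 343 had a count in these 6 libraries, 209 to 259 per diapaused and 140 to 153 per mTORi library. The 102 tested names held 95.82% to 97.61% of the counts of each library. Levels are given as CPM, counts scaled to a common library total with TMM factors. A count of 0 over a group allows up to 78.5 CPM in diapaused and 276 CPM in mTORi, and these limits and the intervals below cover counting error only. Pearson's r of log2 CPM across miRNAs was 0.939 to 0.953 between diapaused replicates, 0.908 to 0.924 between mTORi replicates and 0.819 to 0.915 between the groups. As a check of the tissue label, miR-322-5p ran from 15921 to 31005 CPM in the 6 mural libraries and from 1606 to 11842 CPM in the 6 polar libraries of the same treatments. In diapaused libraries the other tested arms of its cluster were also higher in every mural than in every polar library. In mTORi libraries they overlapped between the parts. There miR-351-5p ran from 1372.5 to 2302 CPM in mural and from 1781 to 2961 CPM in polar libraries. For miR-503-5p the ranges were 1644 to 3580 CPM and 0 to 5007 CPM. In mTORi the check thus rests on miR-322-5p. The miR-302/miR-367 cluster of the epiblast had 0 counts in the 6 libraries, which is not a check of the label because its polar level was not compared.

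Across all tested miRNAs the pauses differed widely in direction and seldom past the threshold. In the edgeR quasi-likelihood fit over all 16 libraries, 1 of 102 miRNAs (0.98%) passed the Benjamini-Hochberg threshold of 0.05 and is called lower here, namely miR-351-5p. At an unadjusted p under 0.05 there were 26 (25.5%), 8 higher (7.84%) and 18 lower (17.6%) in mTORi. For 42 miRNAs (41.2%) the 3 mTORi libraries did not overlap the 3 diapaused ones, with 12 wholly higher (11.8%) and 30 wholly lower (29.4%). A fit of the 6 libraries alone, planned as an alternative, called 17 of 75 (22.7%), 12 higher (16%) and 5 lower (6.67%). Its common dispersion corresponds to a coefficient of variation of 0.261 between replicates, against 0.376 when the other 10 libraries share the estimate.

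The direction depends in part on the scaling. The median log2 difference (mTORi minus diapaused) of all tested miRNAs was -0.41 with TMM factors, 0.16 higher with RLE factors and 0.22 higher with library size alone. DESeq2 called 5 miRNAs, miR-10b-5p, miR-320-3p, miR-30e-5p and miR-5126 higher and miR-351-5p lower. Scaled by RLE, 15 miRNAs were wholly higher and 23 wholly lower, with 5 called (4 higher and 1 lower). By library size the counts were 15 and 21, with 4 called (3 higher and 1 lower). Values below are from the 16-library TMM fit unless stated otherwise and are best read against the median of -0.41. miR-351-5p was called in 8 of 8 fits that kept all replicates of both groups and had been planned, miR-10b-5p and miR-320-3p in 6 each, miR-30e-5p in 4, and miR-5126 in 4 of the 6 that tested it.

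**Figure D1:**
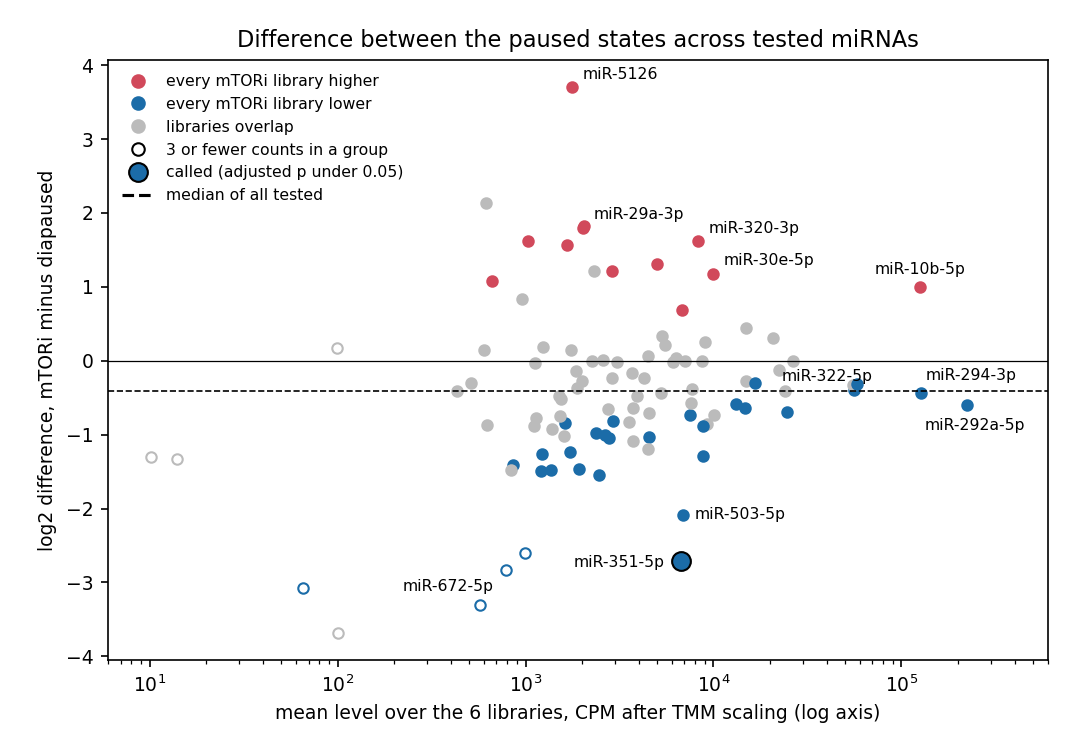
Log2 difference between mTORi and diapaused mural trophectoderm (y axis) against the mean level over the 6 libraries in CPM (x axis, log scale) for the tested miRNAs with a count; red points are wholly higher in mTORi, blue points wholly lower, grey points overlap, and open points have 3 or fewer counts in a group. miR-351-5p at -2.71 is the point called in the 16-library fit, and the dashed line marks the median of all tested miRNAs at -0.41.

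The X-linked cluster differed unequally between the pauses, with its members miR-351-5p and miR-503-5p far lower in mTORi and miR-322-5p at an overlapping level. Clustered miRNAs are generally cut from a shared primary transcript, and miR-322 and miR-503 are known for cell cycle genes as targets. miR-351-5p, whose seed is that of the miR-125 family, stood at 12655, 11579.9 and 10726 CPM in the diapaused libraries. In mTORi it stood at 1671, 1372.5 and 2302 CPM, and in WT at 17603.5 and 16384 CPM. Each mTORi library was thus far below each diapaused library, and the groups did not overlap. The log2 difference was -2.71 (SE 0.51, 95% interval -3.79 to -1.63, edgeR adjusted p = 0.00613), a 6.55-fold lower level resting on 443 counts in diapaused and 19 in mTORi. Without mTORi replicate 2 it was -2.39 (edgeR adjusted p = 0.114), and without mTORi replicate 3 it was -2.63 (edgeR adjusted p = 0.0562), so the call needs both libraries in this fit. Over 23 alternatives the value ran from -2.73 to -2.29 and the adjusted p from 3.79e-07 to 0.114 (edgeR and DESeq2). By level it ranked 20 among the tested miRNAs in diapaused and 62 in mTORi libraries.

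miR-503-5p, a member of the extended miR-15/miR-16 group, was at 13759.5, 6678 and 12989 CPM in diapaused and at 3580.2, 2471 and 1644 CPM in mTORi libraries. The groups did not overlap, and both lay below the WT libraries at 27729 and 28104 CPM. For miR-503-5p the fit gave -2.09 (SE 0.70, edgeR adjusted p = 0.0687), and -1.74 in the 6-library fit, where it was called (SE 0.40, edgeR adjusted p = 0.00709). The cluster also holds miR-542-3p and miR-351-3p, which lay below the filter of the test and are given because of their values. miR-542-3p had 14, 23 and 20 counts in diapaused and 1, 0 and 0 in mTORi, a ratio of 0.0617 after scaling (95% interval 0.00153 to 0.358). miR-351-3p had 10, 11 and 12 counts against 1, 0 and 0, a ratio of 0.106 (0.00262 to 0.636). In the edgeR fit without a filter their adjusted p-values were 0.114 and 0.432, so neither was called.

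The other tested arms overlapped between the groups. miR-322-5p, the most abundant member, was at 29226, 22425 and 31005 CPM in diapaused and at 22436, 15921 and 24003 CPM in mTORi. Its log2 difference was -0.41 (SE 0.40, edgeR adjusted p = 0.531), equal to the median of all tested miRNAs. miR-322-3p differed by 0.06 (SE 0.47) and miR-503-3p by -0.01 (SE 0.66), and the sign of miR-503-3p depended on the scaling. Of the 5 tested members 1 was called lower and 4 were not called, with a median of -0.41.

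**Figure D2:**
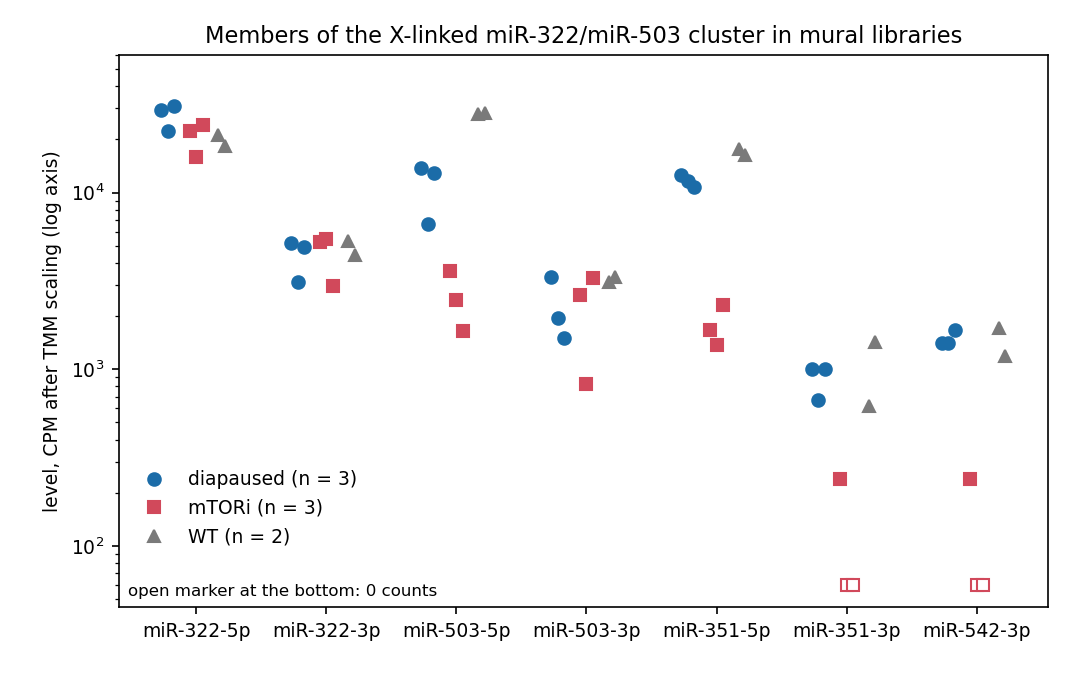
Level in CPM (y axis, log scale) of 7 miRNAs of the X-linked miR-322/miR-503 cluster in each mural library, with diapaused as circles, mTORi as squares and WT as triangles; open markers at the bottom stand for 0 counts. miR-503-5p, miR-351-5p, miR-351-3p and miR-542-3p are lower in every mTORi library, and miR-322-5p, miR-322-3p and miR-503-3p overlap.

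Ratios within a library are free of scaling. The count ratio of miR-351-5p to miR-322-5p (with 0.5 added to each count) was 0.434, 0.517 and 0.347 in diapaused, 0.0794, 0.094 and 0.102 in mTORi, and 0.832 and 0.89 in WT libraries. The ratio of miR-503-5p to miR-322-5p was 0.472, 0.299 and 0.42 in diapaused against 0.164, 0.162 and 0.0748 in mTORi. Both ratios were lower in every mTORi library, with a two-sided exact permutation p of 0.1, the smallest that 3 against 3 libraries allow (0.35 after adjustment over 14 ratios). The arms of the miR-503 hairpin differed in the same way, with 4.1, 3.37 and 8.41 counts of the 5p arm per count of the 3p arm in diapaused and 1.35, 2.71 and 0.524 in mTORi (exact p 0.1, adjusted 0.35). By contrast, miR-351-5p per count of miR-503-5p overlapped between the groups, at 0.826 to 1.73 and 0.484 to 1.36.

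miR-10b-5p was the most abundant miRNA with a higher level in the induced pause. Encoded in the HoxD cluster, it is known as a Hox-linked miRNA with a role in cell migration. It stood at 91395, 68560.3 and 91088 CPM in diapaused and at 161349.5, 160312.5 and 182157 CPM in mTORi libraries. Every mTORi library was above every diapaused one, and all 6 were above the WT libraries at 44554 and 33485 CPM. Between the pauses it differed by 1.00 on the log2 scale (SE 0.33, 95% interval 0.31 to 1.70), a 2.01-fold level that missed the threshold in the 16-library fit (edgeR adjusted p = 0.0687). It was 1.33 (SE 0.10, edgeR adjusted p = 9.43e-08) in the 6-library fit, and from 0.91 to 1.37 over 23 alternatives (adjusted p 5.26e-17 to 0.177 in edgeR and DESeq2). On counts alone, miR-10b-5p made up 6.71% of the miRNA counts of diapaused and 15.8% of those of mTORi libraries. Its relative miR-10a-5p was at 3816.5, 18748 and 3268 CPM in diapaused and at 4058, 10431 and 5589.6 CPM in mTORi, with diapaused replicate 2 above the rest. Its log2 difference was -0.38 (SE 0.56, edgeR adjusted p = 0.706) and was positive, 0.95 (edgeR adjusted p = 0.238), without that library.

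miR-320-3p, which is made without the nuclear Drosha step, was at 5323, 3921 and 2933 CPM in diapaused and at 8593, 11255 and 17755 CPM in mTORi. The groups did not overlap, and the WT libraries, at 5141 and 4903 CPM, lay among the diapaused ones. Its log2 difference came to 1.62 (SE 0.43, edgeR adjusted p = 0.0687) and 1.93 in the 6-library fit (SE 0.33, edgeR adjusted p = 0.000686). It was also called without mTORi replicate 1, at 2.03 (edgeR adjusted p = 0.0404).

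Both arms of the miR-30e hairpin were higher in mTORi. The miR-30 family is widely expressed and is known for restraining epithelial-to-mesenchymal change. miR-30e-5p stood at 7532.5, 6004 and 4693 CPM in diapaused and at 16469, 13999.9 and 10850.5 CPM in mTORi, without overlap. miR-30e-3p stood at 1105, 858 and 502.8 CPM in diapaused and at 2148, 1372.5 and 3946 CPM, again without overlap. Log2 differences were 1.18 (SE 0.40, edgeR adjusted p = 0.0687) and 1.56 (SE 0.62, edgeR adjusted p = 0.133), and both were called in the 6-library fit (1.52 and 1.86). miR-30a-5p, which has the same seed as miR-30e-5p, overlapped between groups at a log2 difference of -0.71 (SE 0.67), and miR-30d-5p, the most abundant member, at -0.13 (SE 0.29).

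Other miRNAs with higher levels in mTORi included miR-29a-3p, known for collagen and other matrix genes as targets. It was at 1105, 1348 and 168 CPM in diapaused, 1909.5, 3019.6 and 4603 CPM in mTORi and 0 and 478 CPM in WT. miR-22-3p ran from 1409 to 2262.5 CPM in diapaused and from 3342 to 5261 CPM in mTORi. miR-743a-3p, from a rapidly evolving X-linked cluster, ran from 1409 to 4106 CPM and from 5251 to 8509.7 CPM. None of the 3 overlapped between groups, with log2 differences of 1.80 (SE 0.72), 1.22 (SE 0.59) and 1.31 (SE 0.55) and edgeR adjusted p-values of 0.133, 0.194 and 0.157, and the 6-library fit called each of them. miR-146b-5p, miR-148a-3p and miR-26b-5p were also called higher there, at 1.57, 0.62 and 0.76, although their libraries overlapped.

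miR-5126 had the largest positive value, at 3.70 (SE 1.05, edgeR adjusted p = 0.0687), on 9 counts in diapaused and 35 in mTORi. Its levels were 301, 245 and 168 CPM in diapaused and 955, 6314 and 2630.4 CPM in mTORi. The 2 WT libraries held 467.3 and 24755 CPM, so replicates of 1 group differed more than the paused groups did. Leaving out mTORi replicate 2 lowered the log2 difference to 2.94. miR-2137, with a G and C share of 85.7%, also differed between the WT libraries (467.3 and 7295 CPM) and was wholly higher in mTORi (824 to 986 CPM against 83.8 to 735). That rests on 4, 3 and 3 counts in mTORi and 4, 12 and 1 in diapaused libraries. Its log2 difference was 1.08 (SE 1.05, edgeR adjusted p = 0.521), so it was not called. Over all tested miRNAs with a sequence the median G and C share was 45.5%, the same as in those wholly higher in mTORi.

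**Figure D3:**
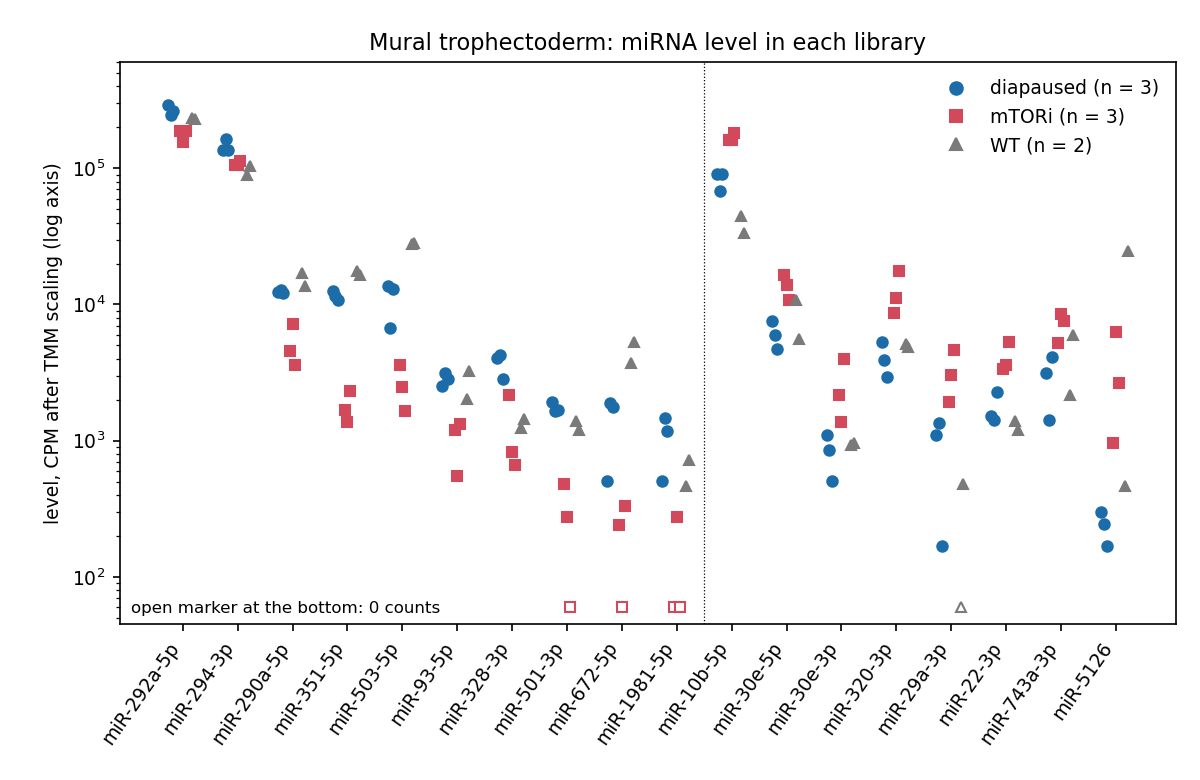
Level in CPM (y axis, log scale) of 18 miRNAs in each mural library; to the left of the dotted line are miRNAs with negative and to the right with positive log2 differences, with diapaused as circles, mTORi as squares, WT as triangles and 0 counts as open markers at the bottom. The 18 are a chosen set, all of them among the 42 of 102 tested miRNAs (41.2%) whose diapaused and mTORi libraries do not overlap.

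The miR-290/miR-295 cluster, which marks early embryonic cells and promotes the cell cycle, made up the largest share of the miRNA in both pauses and a smaller one in mTORi. It held 50.95%, 49.65% and 48.76% of the counts of the diapaused libraries and 42.52%, 40.24% and 40.77% of the mTORi libraries. The groups did not overlap (exact permutation p 0.1, the smallest possible), and the WT libraries, at 51% and 50.19%, lay with diapaused. All 13 tested members had a negative log2 difference and none was called, with 4 lower at an unadjusted p under 0.05, and 7 of the 13 were wholly lower. Of all 102 tested miRNAs, 71 were negative and 30 wholly lower (29.4%). The cluster's median was -0.59, against -0.41 for all tested miRNAs. The sign held for all 13 under RLE and library size scaling, and for 11 of 13 in the 6-library fit.

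Within the cluster, miR-292a-5p, the most abundant miRNA on average over the 6 libraries, was at 293468, 246425 and 265638 CPM in diapaused and at 188798, 155097 and 187418 CPM in mTORi. Every mTORi library was lower, and the fit gave -0.60 on the log2 scale (SE 0.17, 95% interval -0.96 to -0.24, edgeR adjusted p = 0.0687), and -0.28 in the 6-library fit, where it was called (SE 0.08, edgeR adjusted p = 0.0185). miR-290a-5p, which has the same seed, was at 12454, 12867 and 12234 CPM against 4535, 7137 and 3617 CPM. It also did not overlap, at -1.29 (SE 0.39, edgeR adjusted p = 0.0687) and -0.95 in the 6-library fit (SE 0.31, edgeR adjusted p = 0.0362). miR-294-3p, which carries the seed known for speeding the embryonic cell cycle, was at 136590.2, 165488 and 136589.7 CPM against 106214, 105685.5 and 113108 CPM. Its log2 difference was -0.43 (SE 0.15, edgeR adjusted p = 0.0687), close to the median of -0.41 of all tested miRNAs. In the 6-library fit miR-294-3p was at -0.12 (SE 0.10, edgeR adjusted p = 0.502) and was not called. The 7 tested 5p arms had a median of -0.64 and the 6 tested 3p arms a median of -0.42. Within libraries the 5p to 3p ratio overlapped between groups for miR-291a, miR-291b, miR-292a, miR-293, miR-294 and miR-295 (exact permutation p 0.2 to 0.9).

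Several less abundant miRNAs were lower in every mTORi library. miR-93-5p, of the miR-106b/miR-25 cluster inside the replication gene Mcm7, was at 2511, 3125 and 2849 CPM in diapaused and at 1193.4, 549 and 1315 CPM in mTORi (log2 -1.47, SE 0.47, edgeR adjusted p = 0.0687). Its seed partner miR-17-5p differed by a similar -1.48 (SE 0.64, edgeR adjusted p = 0.166). By contrast miR-20a-5p, which has that seed too, differed by 0.15 (SE 0.58) with overlap. miR-328-3p was at 4017, 4228 and 2849 CPM against 2148, 823.5 and 658 CPM (log2 -1.55, SE 0.51, edgeR adjusted p = 0.0687). let-7g-5p, of a family associated with differentiation, was at 6327, 6678 and 5195 CPM against 2387, 3569 and 2959.2 CPM (log2 -1.03, SE 0.38, edgeR adjusted p = 0.0999).

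For 4 of the miRNAs that were lower in every mTORi library, the mTORi group held 3 or fewer counts. The least abundant, miR-152-3p, had 5 and 0 counts, too few for a fold. miR-672-5p, an X-linked miRNA in an intron of Nexmif, had 57 counts in diapaused and 2 in mTORi, a ratio of 0.123 after scaling (95% interval 0.0146 to 0.466), and its mean level in WT was 4500.4 CPM against 1387 in diapaused. miR-501-3p, in an intron of Clcn5, had 66 counts and 3, a ratio of 0.16 (0.0321 to 0.488). miR-1981-5p had 43 counts and 1, a ratio of 0.0817 (0.00202 to 0.48). The edgeR adjusted p-values of the last 3 were all 0.0687, and the 6-library fit called miR-501-3p lower at -2.29 (SE 0.64, edgeR adjusted p = 0.0171).

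By family, shares of all counts differed in both directions. The miR-10 family held 7.567%, 7.112% and 7.628% in diapaused and 15.91%, 17.22% and 16.45% in mTORi libraries. The miR-30 family held 3.07% ± 0.248 (SD, n = 3) and 4.01% ± 0.489 (n = 3), and the miR-148/miR-152 family 1.65% ± 0.161 (n = 3) and 2.28% ± 0.223 (n = 3). The miR-101 family held 1.23% and 1.58% on average, and these 4 families were higher in every mTORi library. With the miR-290/miR-295 counts left out, the miR-10 family still did not overlap (14.8% and 28.1% on average), and the other 3 did. The miR-322/miR-503 cluster held 4.78% ± 0.759 (SD, n = 3) in diapaused and 3.02% ± 0.408 (n = 3) in mTORi, and the epithelial miR-200 family 9.44% ± 0.728 and 7.90% ± 0.733, both lower in every mTORi library. With 3 against 3 libraries the exact permutation p of each of these shares was 0.1, the smallest possible. The shares of a library sum to a whole, so a larger miR-10 share in itself lowers the other shares. Shares without the miR-10 counts were not computed for these lists, the miR-290/miR-295 cluster or the seeds below.

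**Figure D4:**
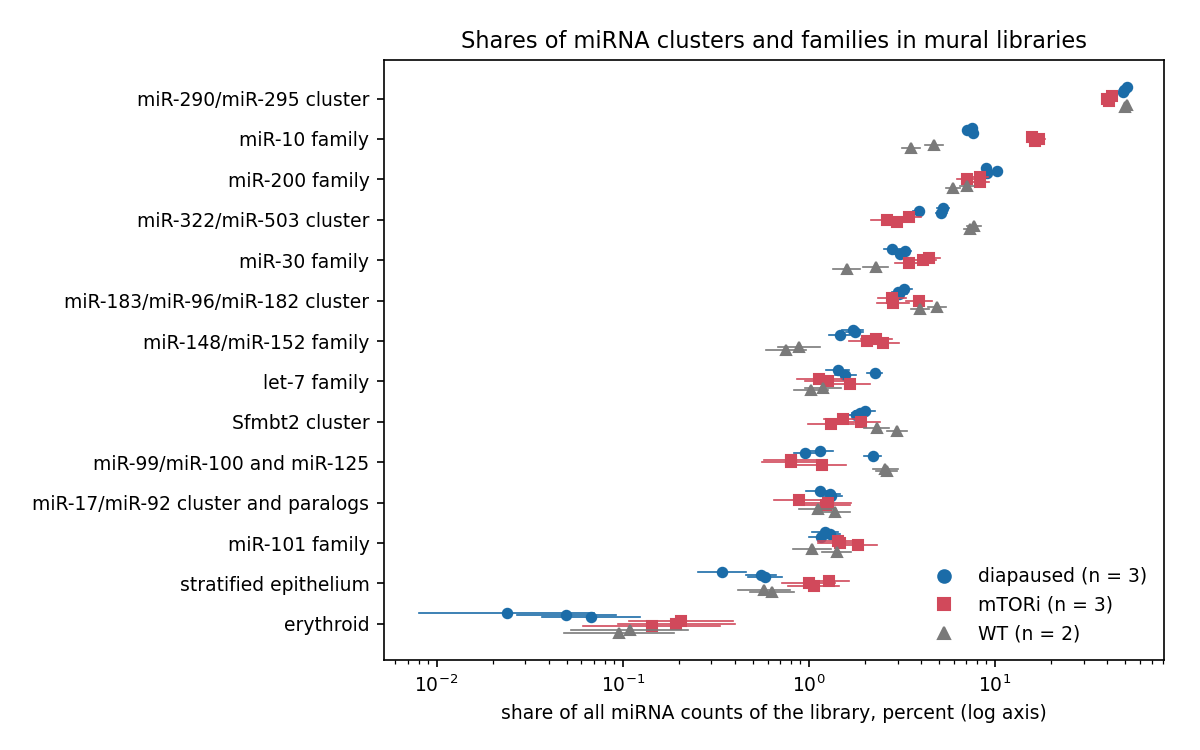
Share of all miRNA counts of a library, in percent (x axis, log scale), held by 12 miRNA clusters and families and 2 marker lists of other cell types; points are libraries (diapaused circles, mTORi squares, WT triangles) and bars their 95% Wilson intervals for counting error. The miR-10 family is higher and the miR-290/miR-295 and miR-322/miR-503 clusters are lower in all 3 mTORi libraries.

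None of the 5 tested members of the miR-200 family was called, all 5 had negative values (against 71 of the 102), and 3 were wholly lower (against 30). Its median was -0.73, with miR-200b-3p at -0.69 (SE 0.31), and miR-200c-3p, at -0.31 (SE 0.21), lay above the median of all tested miRNAs. In the 6-library fit miR-200c-3p was at 0.01 and the other 4 were negative. None of 5 tested let-7 members was called, with a median of -1.01 and 3 wholly lower. let-7b-5p stood apart at -0.02 and changed sign with the scaling. Among miR-17/miR-92 paralogs 0 of 6 were called (median -0.39), in the Sfmbt2 cluster 0 of 3 (-0.73), and in the miR-23/miR-27/miR-24 clusters 0 of 2 (-0.08, positive by RLE and library size). At an unadjusted p under 0.05 these 5 lists had 1, 2, 2, 1 and 0 members lower and none higher in mTORi, and neither DESeq2 nor the 6-library fit called any of them. Among members of the miR-99b/let-7e/miR-125a transcript on chromosome 17, miR-99b-5p differed by -1.08 (SE 0.56), let-7e-5p by -1.01 (SE 0.47) and miR-125a-5p by -0.85 (SE 0.39), each negative under every scaling and not called.

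Summed by seed, 23 seeds averaged at least 0.5% of the counts, of which 5 were wholly higher in mTORi, 6 wholly lower and 12 overlapping. The seed ACCCUGU of miR-10 held 7.41% ± 0.265 (SD, n = 3) in diapaused and 16.5% ± 0.713 (n = 3) in mTORi. CUCAAAC held 23.9% ± 1.47 and 18.4% ± 1.19, and AAGUGCU 13.6% ± 1.56 and 11.9% ± 0.314. The CCCUGAG seed of miR-351-5p and miR-125a-5p stood at 1.81%, 1.51% and 2.36% in diapaused and 0.616%, 0.803% and 0.946% in mTORi, so the group difference of miR-351-5p was not offset by its seed partner. The AGCAGCA seed, mostly miR-322-5p, overlapped at 2.40% ± 0.321 and 2.13% ± 0.398. Higher seeds apart from miR-10 were UCAAGUA of miR-26 (1.01% and 1.61%), CAGUGCA of miR-148/miR-152 (1.65% and 2.28%), ACAGUAC of miR-101a (0.658% and 0.917%) and UGAAAUG of miR-203 (0.422% and 0.795%).

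Markers of blood, vessel, muscle, liver and nerve cells were scarce, while epithelial markers were more abundant. Of the blood lists, the erythroid one held a larger share of every mTORi library, and the leukocyte one rested on very few counts. The erythroid list held 23 counts in diapaused and 21 in mTORi (0.0238% to 0.0675% and 0.143% to 0.205% of a library), most of them miR-451a, at 301 to 754 CPM against 1315 to 1922 CPM without overlap. The leukocyte list held 3 counts in diapaused (1 per library) and 15 in mTORi (1, 3 and 11), or 0.00499% to 0.00793% and 0.0228% to 0.315%. The share of mTORi replicate 1 thus rests on 1 count over a smaller library total. Within the list, miR-223-3p had 1 and 7 counts and miR-155-5p 2 and 7, all 7 of the latter in mTORi replicate 3. The endothelial list, miR-126a, had 7 counts in each group (0% to 0.0249% and 0.0228% to 0.086%), and the liver miRNA miR-122-5p 0 and 3. The stromal list held 61 counts and 9, with shares that overlapped (0.08725% to 0.1646% in diapaused and 0.05731% to 0.1107% in mTORi). Muscle held 2 and 0 counts, neural 0 and 0, and the Dlk1-Dio3 cluster 3 and 4. The stratified epithelium list held 0.492% ± 0.131 (SD, n = 3) in diapaused and 1.11% ± 0.147 (n = 3) in mTORi. Its members miR-203-3p and miR-205-5p ran from 3415 to 7039 CPM and from 168 to 1532 CPM in diapaused, and from 7234 to 10263 CPM and from 1647 to 4932 CPM in mTORi, without overlap. Neither was called in the 16-library fit, and the 6-library fit called both higher, miR-203-3p at 1.00 (SE 0.34, edgeR adjusted p = 0.0467) and miR-205-5p at 2.10 (SE 0.58, edgeR adjusted p = 0.0171). Both were also called higher in polar mTORi fragments, whose values are given with the polar results. Their part in the differences above was not tested. In bulk fragments, fewer cells of a type and less RNA per cell cannot be told apart.

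Some miRNAs differed from WT more than between the pauses. miR-30d-5p stood at 18666.5 to 25893 CPM in the 6 paused libraries and at 7322 and 6697 CPM in WT. miR-148a-3p stood at 16257 to 27619 CPM in the paused libraries and at 5608 and 5740.4 CPM in WT, with a log2 difference of 0.31 between the pauses. These WT values come from 2 libraries and are given without a test.

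Diapaused replicate 2 differed from its fellow libraries in several miRNAs. miR-21a-5p was at 16543 CPM there against 5223 and 5447 CPM, let-7b-5p at 10477 against 3515 and 4106 CPM, and miR-30a-5p at 9374 against 2712 and 4860.2 CPM. It was also the most deeply counted library. Leaving it out kept 1 call, miR-351-5p at -2.68 (edgeR adjusted p = 0.0167).

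The same contrast in polar fragments gives values to set beside the mural ones. Depth and group cannot be told apart in polar either, with 14500, 9510 and 9049 counts in diapaused and 3061, 2184 and 3501 in mTORi libraries. There 16 of 102 miRNAs were called (15.7%), 8 higher and 8 lower in mTORi (7.84% each), and 32 had an unadjusted p under 0.05 (31.4%). Between 4 and 18 were called when 1 polar library was left out, with 6, 5 and 4 calls without polar diapaused replicates 1, 2 and 3. All 16 had the same sign in mural trophectoderm, against 67 of the 102 tested, and miR-351-5p, the mural call, was not among them. The labels do not say whether same-numbered mural and polar libraries came from the same embryos. The main fit treats them as separate, so this agreement may not be between independent samples. miR-30e-5p differed by 1.27 in polar and 1.18 in mural, miR-93-5p by -1.57 and -1.47, and miR-10b-5p, not called in either, by 0.97 and 1.00. miR-351-5p behaved otherwise, at 3264, 1924 and 2267.5 CPM in polar diapaused and 2146, 2961 and 1781 CPM in polar mTORi libraries, a log2 difference of -0.14. Its level in mural mTORi libraries (1372.5 to 2302 CPM) overlapped that in the polar ones, whereas in mural diapaused libraries it was above all of them. For miR-503-5p the polar value was -0.17 and for miR-322-5p 1.10.

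The test of the difference between the parts called none of 102 (0%) in edgeR, with 8 at an unadjusted p under 0.05 (7.84%), 1 higher (0.98%) and 7 lower (6.86%) in mural. For miR-351-5p the mural minus polar value was -2.58 (SE 0.74, edgeR adjusted p = 0.147), and DESeq2 called it at -2.49 (SE 0.64, DESeq2 adjusted p = 0.00926). For miR-294-3p it was -0.69 (edgeR adjusted p = 0.147), with a polar log2 difference of 0.26. miR-203-3p, at -4.16, was called in the fit without a filter on low counts and in the fit without polar mTORi replicate 1 (-4.69, SE 0.91, edgeR adjusted p = 0.00968), and in no other fit. Its polar levels were 2731, 3746 and 3496 CPM in diapaused and 4649.7, 14803 and 266465 CPM in mTORi, so polar mTORi replicate 3 stood far above the rest. That library was also the highest polar mTORi library for miR-205-5p (55573 CPM against 3219 and 2115), miR-21a-5p (45242 against 9657 and 2538) and let-7b-5p (34555 against 6438 and 5921). Without it the mural minus polar value of miR-203-3p was -0.86 (SE 0.59, edgeR adjusted p = 0.511). The polar difference of miR-203-3p was 4.84 (SE 0.96, edgeR adjusted p = 0.00517) with that library and 1.78 (SE 0.45, edgeR adjusted p = 0.0146) without it. For miR-205-5p the polar difference was 3.44 (SE 0.97, edgeR adjusted p = 0.026) with it and 0.78 (SE 0.79, edgeR adjusted p = 0.563) without it.

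**Figure D5:**
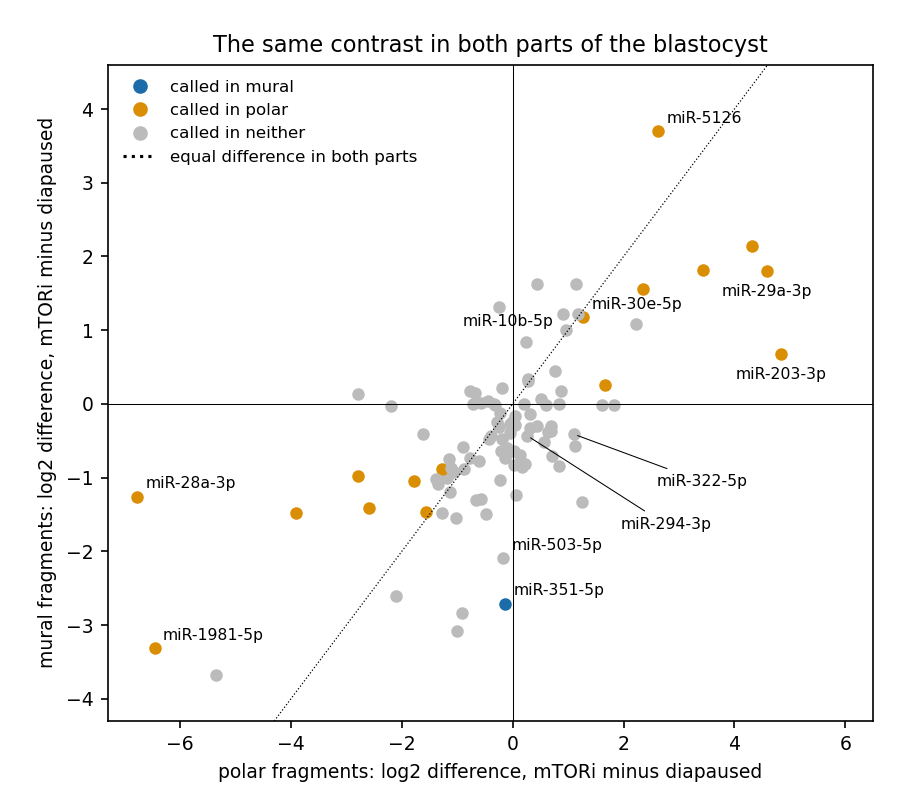
Log2 difference between mTORi and diapaused libraries in mural trophectoderm (y axis) against the same difference in polar fragments (x axis) for the 102 tested miRNAs; orange points were called in polar and the blue point, miR-351-5p, in mural. The 16 polar calls have the same sign on both axes, and miR-351-5p is at -0.14 in polar and -2.71 in mural.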

How the data were processed

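Small RNA was sequenced from laser-cut mural and polar fragments of mouse blastocysts, with adapters that carry molecular identifiers and 12 to 20 PCR cycles, per the labels' protocols. The authors deposited 1 table per library with a whole-number count for each of 1978 mature miRNA names. The genome build is GRCm38 per the submitters' processing notes, while the aligner, the counting tool, the annotation release and whether identifiers were collapsed were each not given in the sources used here. Samples were grouped by their tissue and treatment labels.

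Names were kept by filterByExpr (minimum count 10, minimum total 15), which left 102, and scaled by TMM. A quasi-likelihood model with 6 group means over 16 libraries was fitted in edgeR 4.0.16 (R 4.3.3), with Benjamini-Hochberg adjusted p under 0.05 as the call and a prior count of 2 for logarithms. It was tested on simulated counts with a smaller spread than these data and with changes only in the more abundant miRNAs. That run checked the direction of the estimates and does not measure error rates in these data. The 16 libraries share 1 estimate of spread. CPM and shares were computed from the counts, intervals of shares are Wilson 95% intervals, and count ratios have exact 95% intervals. Exact permutation tests were two-sided. Alternatives were RLE and library size scaling, no filter, a mean count of at least 20, DESeq2 1.42.0, the 6 libraries alone, a replicate block and each replicate left out. The main fit did not pair libraries by replicate number. Deviations of same-numbered diapaused and mTORi libraries from their group means correlated at 0.045, -0.026 and -0.218. With 3 libraries per group and few counts in mTORi, these values cannot exclude pairing.

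Named miRNAs are up to 15 calls per direction (at least 10 CPM), the 5 uncalled ones with the smallest p in each direction, the 10 most abundant and up to 4 members of each of 29 lists; others are named for their values. The members and lists were chosen with earlier results of these data known.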

Additional observations from a re-analysis of the deposited data

How the results depend on the processing

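The count of calls depended on the fit. Against 1 call, RLE scaling gave 5, library size 4, no low-count filter 6, the stricter filter 5, DESeq2 5 and the 6 mural libraries alone 17, and the replicate block gave 1. Leaving out 1 library gave 0 to 3 calls, with 0 without mTORi replicate 2 (18 at an unadjusted p under 0.05) or mTORi replicate 3 (10) and 3 without mTORi replicate 1. Calls higher in mTORi made up 0% in the TMM fit, 80% by RLE, 75% by library size and 70.6% in the 6 libraries. Among alternatives chosen after seeing the data, leaving out polar mTORi replicate 3 gave 7 calls, the 8 mural libraries 16, and the 6 libraries 17 by RLE and 13 by library size. With 1 of the 6 also left out they gave 7, 16 and 9 (diapaused replicates 1, 2 and 3) and 12, 14 and 10 (mTORi replicates 1, 2 and 3), 6 miRNAs being called each time (miR-10b-5p, miR-30e-5p, miR-320-3p, miR-351-5p, miR-503-5p and miR-5126). In polar fragments the stricter filter gave 10 calls and leaving out 1 library 4 to 18. For the difference between parts, no filter and DESeq2 gave 1 each and leaving out 1 library 0 to 1. Of 1095 alternative values of 53 named results, 985 stayed on the same side of the threshold, 107 newly passed it, and 2, both of miR-351-5p, no longer did. miR-10a-5p reversed, to 1.26 in the 6 libraries without diapaused replicate 2. The share of the miR-183/miR-96/miR-182 cluster differed by 0.03 on the log2 scale and by -0.20 without the miR-290/miR-295 counts. The block gave 15 calls in polar, against 16, and 0 for the difference between parts, as without it. Causes were not tested. With 3490 to 4386 counts per mTORi library, absence from all 3 still leaves room for 276 CPM.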

Other observations

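Names too scarce for the test included several with counts in every diapaused library and none in mTORi, chosen after their values were seen. miR-135b-5p had 12, 28 and 7 counts in diapaused and 0 in each mTORi and WT library, at least 4.46-fold lower in mTORi when 3 counts over the group are taken as its limit. miR-215-5p had 6, 15 and 21 counts against 0 (at least 3.98-fold lower). It has the seed of miR-192-5p, which differed by 0.18 on the log2 scale with overlap. miR-877-5p, cut from an intron of Abcf1, had 18, 11 and 8 counts against 0 (at least 3.51-fold lower). Their adjusted p-values in the edgeR fit without a filter were 0.094, 0.0863 and 0.0863, so none was called.
miR-215-5p: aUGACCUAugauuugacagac
miR-192-5p: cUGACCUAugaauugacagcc
miR-877-5p: gUAGAGGAgauggcgcaggg

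miR-34a-5p, a target of p53, had 19, 7 and 15 counts in diapaused and 2, 0 and 0 in mTORi, a ratio of 0.171 after scaling (95% interval 0.0201 to 0.66). miR-200b-5p was the opposite case, with 11, 16 and 4 counts against 3, 2 and 14, a ratio of 2.15 (1.15 to 3.93), but 14 of its 19 mTORi counts came from replicate 3. In the edgeR fit without a filter the adjusted p-values of miR-34a-5p and miR-200b-5p were 0.416 and 0.78, so neither was called. In all, 243 names outside the test held 1772 counts in diapaused and 352 in mTORi libraries, with at most 33 in 1 library.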
